A study of Homo sapiens with 6 samples.

Results

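Small nucleolar RNAs (snoRNAs) were described in the gastric cancer cell line YCC3 after siRNA against CTNNB1, which encodes beta-catenin, the transcriptional effector of Wnt signalling. The members were all genes whose single symbol in the array annotation starts with SNORA or SNORD and a digit. They numbered 176 of the 18417 genes measured: 115 SNORD genes of the C/D class and 61 SNORA genes of the H/ACA class. The groups were 3 arrays of CTNNB1 siRNA and 3 arrays of non-targeting control siRNA, with RNA taken 48 h after transfection. The siRNAs came from Dharmacon. The number of different siRNAs in the CTNNB1 transfection is not stated, and a single cell line stands for the knockdown. The replicates are labelled biological, with no word on separate cultures or days, so the spread behind each p-value may be technical.

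SnoRNAs are short stable nuclear RNAs that pair with other RNAs, chiefly pre-ribosomal RNA, and bring a modifying enzyme to a chosen base. C/D snoRNAs guide ribose methylation by fibrillarin (FBL), and H/ACA snoRNAs guide pseudouridine formation by dyskerin (DKC1); a few instead serve the cleavage of pre-ribosomal RNA. Most human snoRNAs are cut out of introns of host genes, many of which encode ribosomal proteins or are non-coding host transcripts such as GAS5, so that host and snoRNA share a promoter while their stabilities are set separately.

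CTNNB1 itself had signals of 10.94, 11.06 and 11.20 on the CTNNB1 siRNA arrays, against 11.80, 11.81 and 11.90 on the control arrays. It fell by 0.77 ± 0.10 (SE; limma, adjusted p = 0.00267). All signals are log2 RMA values, and a change is CTNNB1 siRNA minus control siRNA on that scale. The 5 epithelial markers had mean signals of 8.98 to 13.6, and the 3 measured leukocyte markers of 2.63 to 5.59. The 3 fibroblast markers had 5.41 to 6.72 and the 3 endothelial markers 4.01 to 4.73. No marker passed the limma test. KRT18 had a change of -0.29 (limma, adjusted p = 0.127), with every CTNNB1 siRNA array below every control array. For CDH1 (0.12) and COL1A1 (0.11) every CTNNB1 siRNA array was above every control array. The median gene had a signal of 6.56. Signals of different genes also depend on their probes, so a brighter snoRNA is not shown to be more abundant.

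Few snoRNAs passed the test. With limma and Benjamini-Hochberg adjustment over all 18417 genes, 3 of 176 members (1.70%) fell and none rose; of all genes, 4.72% were called, 2.65% as falls and 2.07% as rises. The 3 were SNORA69, SNORD74 and SNORA6. Among the members 25 (14.2%) had an unadjusted p under 0.05, 23 of them lower and 2 higher, against 20.3% of all genes (2210 lower and 1536 higher). The CTNNB1 siRNA arrays all lay below the control arrays for 24 members and all above for 3, where 15.2% and 10.8% of all genes did so, or 26.0% with either order. Changes were below 0 for 121 members (68.8%) and above 0 for 55, beside 48.8% below 0 among all genes. The median change was -0.10, beside 0.006 over all genes. Measurement error was also larger for snoRNAs: the median standard error of a change was 0.143 for members, beside 0.112 for all genes. In bulk RNA of this kind, fewer cells that express a snoRNA and less of it per cell cannot be told apart.

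Both classes held few calls, and both medians were below 0. Of the 115 C/D snoRNAs 1 fell (0.87%), 78 changes were below 0, and the median was -0.11, with a range of -0.63 to 0.32. Of the 61 H/ACA snoRNAs 2 fell (3.28%), 43 changes were below 0, and the median was -0.07, with a range of -0.79 to 0.45. Among all genes 2.65% fell and 48.8% of changes were below 0. The C/D group held 46 members of the imprinted clusters SNORD113 to SNORD116; without them the 69 other C/D snoRNAs had 1 fall, 52 negative changes and a median of -0.17. Among rows brighter than the median gene, the median change was -0.17 for 34 C/D snoRNAs and -0.01 for 23 H/ACA snoRNAs, beside -0.05 for the 9209 genes in that range. The difference between the classes was not tested. Leaving out CTNNB1 siRNA replicate 1 gave a C/D count of 0, and leaving out replicate 3 of that group gave 5. The H/ACA count was 1 without CTNNB1 siRNA replicate 2, control replicate 1 or control replicate 3. Over all genes, calls in either direction went from 870 to 283 and 877 without CTNNB1 siRNA replicate 1 and 3. In the fits named for H/ACA snoRNAs they were 421, 288 and 372.

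**Figure D1:**
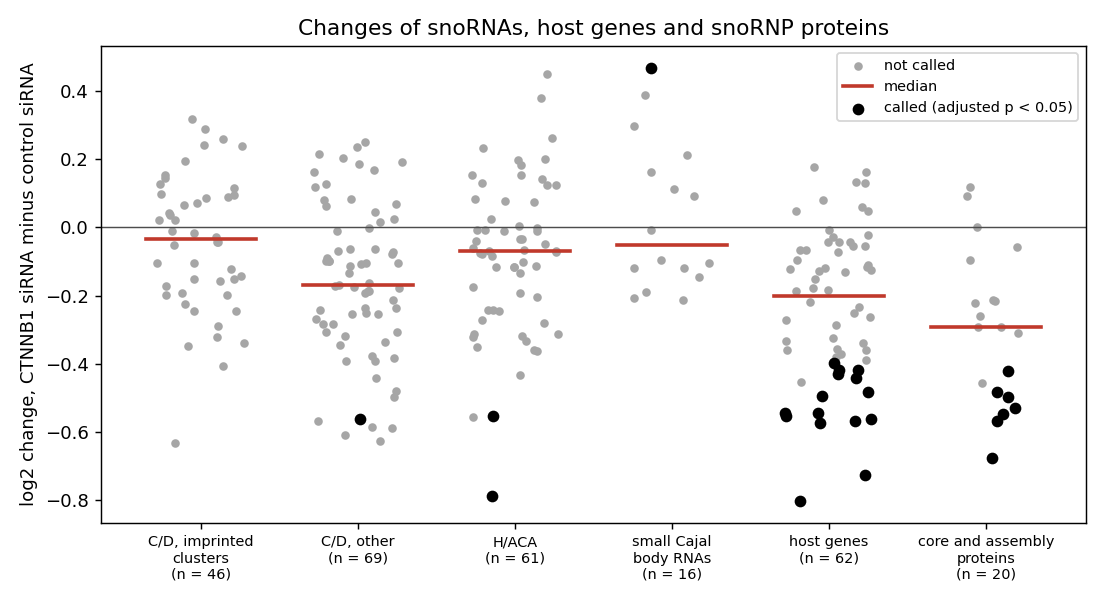
Log2 change (CTNNB1 siRNA minus control siRNA), 1 point a gene. From the left are C/D snoRNAs of the imprinted clusters (n = 46), C/D snoRNAs outside them (n = 69) and H/ACA snoRNAs (n = 61). To their right are small Cajal body RNAs (n = 16), host genes (n = 62) and core and assembly proteins of snoRNA particles (n = 20). The medians of the first 3 groups are -0.03, -0.17 and -0.07. In these groups 3 snoRNAs, all below 0, passed the test.

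The class medians moved more between arrays than between groups. For C/D snoRNAs outside the clusters the median signal was 6.44, 6.10 and 6.44 on the CTNNB1 siRNA arrays, against 6.43, 6.42 and 6.75 on the control arrays. For H/ACA snoRNAs it was 5.88, 5.64 and 5.99 with CTNNB1 siRNA, against 5.74, 5.74 and 6.03 in controls. The groups overlapped in both classes, while the median over all genes stayed between 6.53 and 6.57 on every array. The arrays numbered 3 were the high ones: 59 of the 69 C/D snoRNAs outside the clusters lay above their own group's mean on CTNNB1 siRNA replicate 3, and 59 of 69 did so on control replicate 3. The part of this array effect in the class medians was not tested. Over the 6 arrays the median of all C/D snoRNAs had a within-group SD of 0.197 and that of H/ACA snoRNAs 0.170. These are spreads of a median signal between single arrays. The class changes are medians of changes within genes, so the SDs are not their errors.

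**Figure D2:**
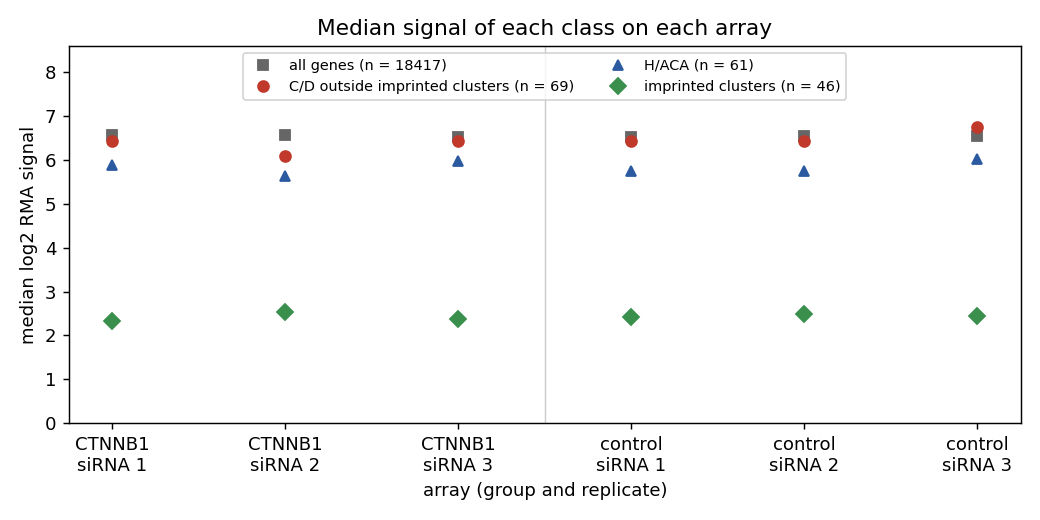
Median log2 RMA signal of each snoRNA group on each of the 6 arrays, with CTNNB1 siRNA arrays left of control arrays. Medians of C/D snoRNAs outside imprinted clusters run from 6.10 to 6.75 and overlap between the groups.

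SNORA69, an H/ACA snoRNA in an intron of RPL39 on chromosome X, had the largest fall. Its signals were 3.33, 3.26 and 3.06 with CTNNB1 siRNA, against 3.87, 4.01 and 4.13 in controls. The groups were well apart, and the change was -0.79 ± 0.11 (95% interval -1.04 to -0.54; limma, adjusted p = 0.00412), which is 42.1% lower. The row is dim, within the lowest 25% of genes by mean signal, where background makes up more of the value.

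SNORD74, a C/D snoRNA of the GAS5 transcript on chromosome 1, was the only called member of its class. It had signals of 7.98, 7.98 and 8.13 with CTNNB1 siRNA, against 8.54, 8.66 and 8.58 in controls. No array of one group reached the other, and the fall was -0.56 ± 0.10 (limma, adjusted p = 0.0107), or 32.3%. With CTNNB1 siRNA replicate 1 left out it missed the threshold (limma, adjusted p = 0.0570), as it did without moderation of the variances (0.0705) and in a fit over all rows (0.0602).

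SNORA6 is an H/ACA snoRNA in RPSA, a ribosomal protein gene on chromosome 3. Its signals were 6.56, 6.50 and 6.79 with CTNNB1 siRNA, against 7.10, 6.98 and 7.42 in controls. The groups did not overlap, and it fell by 31.8%, with a log2 change of -0.55 ± 0.13 (limma, adjusted p = 0.0454). It missed the threshold once CTNNB1 siRNA replicate 1 (limma, adjusted p = 0.156) or replicate 2 (0.132), or control replicate 1 (0.119) or replicate 3 (0.137), was left out. It also missed it after cyclic loess (0.0537), without moderation (0.214) and over all rows (0.160). SNORA62, in another RPSA intron and named here after its values were seen, had a change of -0.24 (adjusted p = 0.478).

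An annotated start of each of the 3 host genes of the called snoRNAs is shown, because host and snoRNA share a promoter. Whether the start shown is the one used in these cells was not tested. Many ribosomal protein genes start in a run of C and T, the 5′ terminal oligopyrimidine tract through which growth signals control translation. Each line gives 100 bases before to 25 bases after the annotated start, from RefSeq on GRCh38.p14 and on the gene's strand. Capitals mark the longest run of at least 6 C or T that overlaps the 15 bases on either side of the start. Shorter runs there are left in lower case.
GAS5, chr1:173869021-173869145, minus strand: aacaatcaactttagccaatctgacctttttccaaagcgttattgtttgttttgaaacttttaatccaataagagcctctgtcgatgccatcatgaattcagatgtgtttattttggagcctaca
RPSA, chr3:39406620-39406744, plus strand: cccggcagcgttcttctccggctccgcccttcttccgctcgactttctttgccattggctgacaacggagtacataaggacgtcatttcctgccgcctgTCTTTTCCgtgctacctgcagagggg
RPL39, chrX:119791606-119791730, minus strand: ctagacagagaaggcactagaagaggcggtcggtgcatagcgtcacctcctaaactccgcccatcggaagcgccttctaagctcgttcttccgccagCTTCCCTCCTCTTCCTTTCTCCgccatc
The marked run of RPSA has 8 bases and begins 1 base before the start. That of RPL39 has 22 and begins 3 bases before it. No such run is in these letters of GAS5 near the start that RefSeq lists first. Other starts of GAS5 are not shown, so whether its transcripts begin with such a run was not tested. Of 90 named hosts, 75 had a promoter in the RefSeq table, some with several starts. Of their 96 windows 57.3% had such a run, beside 38.8% of 35116 windows of all genes. In windows of 250 bases before to 50 after the start, searched on both strands, the E-box CACGTG was in 9.38% of host windows and 7.26% of all. The TCF-type motif CTTTGAT was in 2.08% of host windows and 2.62% of all. Neither motif was in the windows of GAS5, RPSA or RPL39.

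GAS5, a non-coding growth arrest transcript whose introns carry C/D snoRNAs, was the host with the most measured members outside the imprinted clusters. All 7 of its members had negative changes, from -0.59 to -0.16 with a median of -0.48, and SNORD74 alone was called. Members of 1 host come from 1 transcript and are not independent. SNORD75 had signals of 7.00, 6.83 and 7.33 with CTNNB1 siRNA, against 7.54, 7.50 and 7.88 in controls, with a change of -0.59 ± 0.15 (limma, adjusted p = 0.0520). SNORD78 had 8.11, 7.46 and 8.13 with CTNNB1 siRNA, against 8.47, 8.24 and 8.49 in controls (change -0.50, limma adjusted p = 0.136). For both, every CTNNB1 siRNA array was below every control array, and neither passed the test; SNORD75 did so once CTNNB1 siRNA replicate 3 was left out (limma, adjusted p = 0.0253).

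SNORD81 had 6.94, 6.38 and 7.09 with CTNNB1 siRNA, against 7.12, 6.99 and 7.74 in controls (change -0.48). SNORD77, a dimmer member, had 3.20, 3.56 and 3.87 with CTNNB1 siRNA, against 4.06, 3.22 and 4.52 in controls (change -0.39). SNORD44 had 7.94, 7.19 and 7.96 with CTNNB1 siRNA, against 8.22, 7.86 and 7.96 in controls (change -0.32). These groups overlapped, as did those of SNORD79, with 6.03, 5.63 and 6.38 with CTNNB1 siRNA against 6.25, 6.05 and 6.23 in controls (change -0.16). CTNNB1 siRNA replicate 2 was the lowest array for SNORD44, SNORD75, SNORD78, SNORD79 and SNORD81. SNORD44, SNORD77, SNORD78, SNORD79 and SNORD81 are named here after their values were seen. GAS5 has no row with its symbol alone, so the host's own level was not analysed here.

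**Figure D3:**
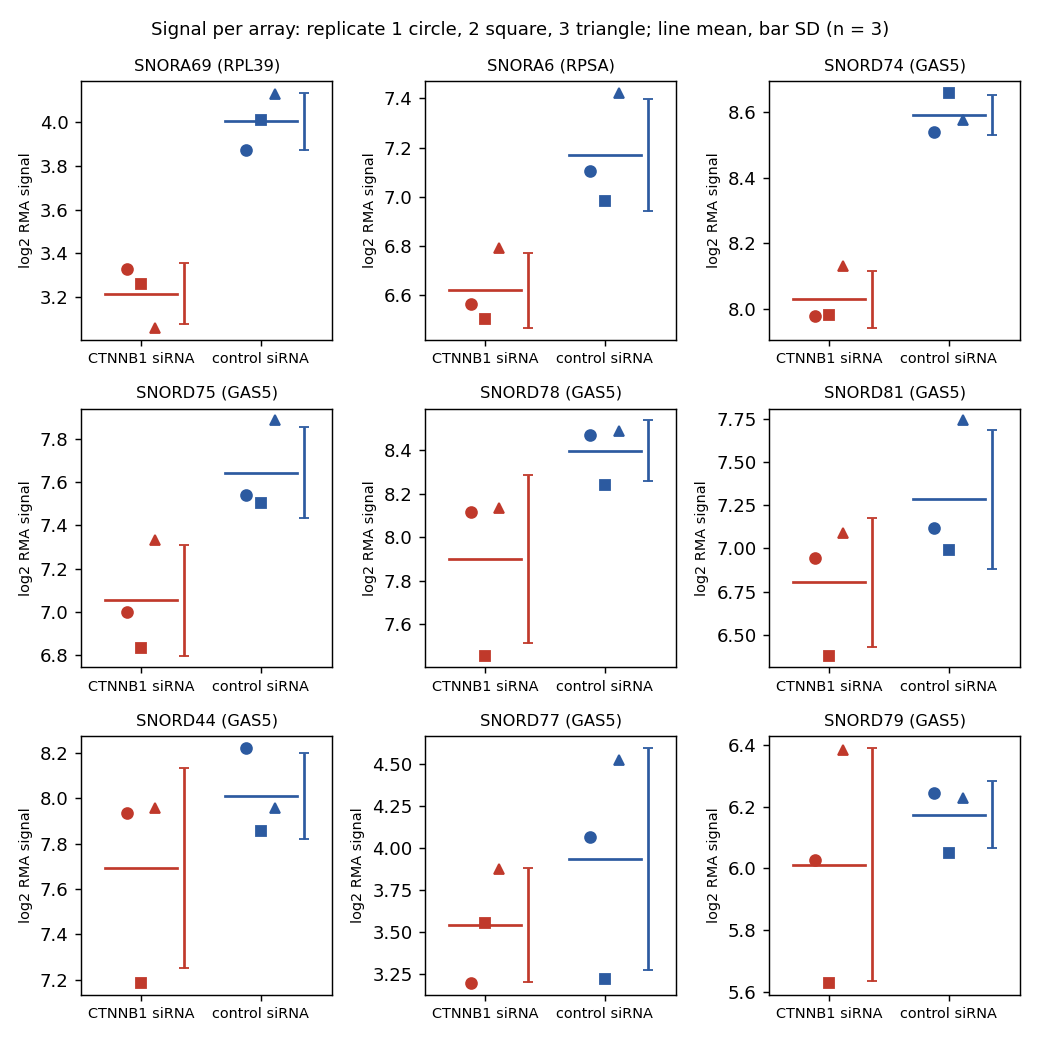
Log2 RMA signals of the called snoRNAs and of the GAS5 snoRNAs, 1 point an array (n = 3 each), CTNNB1 siRNA left of control siRNA, with lines at group means and bars of 1 SD. SNORA69, SNORD74 and SNORA6 show no overlap, while SNORD44, SNORD77, SNORD79 and SNORD81 overlap.

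No snoRNA was called in the following hosts, each with at least 3 measured members. RPL13A had 4 members, 3 of them with negative changes (median -0.18). RPL23A had 3 negative changes of 3 (median -0.10). NCL, RABGGTB, RPL3, SNHG17 and TBRG4 had medians between -0.10 and -0.06, each with 2 of 3 changes below 0.

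Among the remaining C/D snoRNAs with the smallest p, SNORD49A, whose host is the non-coding SNHG29, had the most negative change. Its signals were 5.80, 5.70 and 6.44 with CTNNB1 siRNA, against 6.64, 6.42 and 6.76 in controls, a change of -0.63 ± 0.18 (limma, adjusted p = 0.0806). SNORD4A, in RPL23A, had 5.66, 5.53 and 6.16 with CTNNB1 siRNA, against 6.16, 6.40 and 6.61 in controls (change -0.61 ± 0.17, limma adjusted p = 0.0723). The groups of SNORD49A overlapped and those of SNORD4A nearly touched, in each case through CTNNB1 siRNA replicate 3. With that array left out both snoRNAs passed (limma, adjusted p = 0.00954 for SNORD49A and 0.0200 for SNORD4A). SNORD1A, in the non-coding host SNHG16, had 4.80, 4.37 and 4.61 with CTNNB1 siRNA, against 5.09, 5.03 and 4.98 in controls. Its groups were separate, with a change of -0.44 ± 0.12 (limma, adjusted p = 0.0664).

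Of the H/ACA snoRNAs that did not pass, SNORA33 in RPS12 had 5.65, 5.04 and 5.30 with CTNNB1 siRNA, against 5.90, 5.72 and 6.06 in controls. Its groups did not overlap (change -0.56 ± 0.15, limma adjusted p = 0.0707; 0.0494 with CTNNB1 siRNA replicate 1 left out). SNORA35 lies in HTR2C, a serotonin receptor gene of the brain, and ran the other way. It had 5.01, 5.05 and 5.03 with CTNNB1 siRNA, against 4.79, 4.72 and 4.43 in controls (change 0.38 ± 0.11, limma adjusted p = 0.0850). SNORA70D, in PHLPP2, had 5.04, 5.06 and 5.01 with CTNNB1 siRNA, against 5.39, 5.33 and 5.23 in controls (change -0.28 ± 0.09, limma adjusted p = 0.120). Its arrays were separate, on a scale of change below that of SNORA33.

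The brightest C/D rows did not pass the test, and 4 of the 5 had positive changes, for SNORD13 and SNORD28 with a sign that single arrays turned. SNORD33, a methylation guide in RPL13A, had 11.28, 11.49 and 11.23 with CTNNB1 siRNA, against 11.17, 11.30 and 10.97 in controls (change 0.19, limma adjusted p = 0.428). SNORD13 is transcribed from its own promoter and guides acetylation of the small subunit ribosomal RNA. It had 9.82, 10.92 and 10.58 with CTNNB1 siRNA, against 9.95, 10.64 and 10.22 in controls (change 0.17 ± 0.26, limma adjusted p = 0.764). Replicate 1 was the lowest array of both groups, and the range within each group exceeded the difference between them; without CTNNB1 siRNA replicate 2 the change was -0.07. SNORD13P3, a pseudogene copy whose probes may also detect SNORD13, had 9.58, 10.32 and 9.98 with CTNNB1 siRNA, against 9.46, 9.81 and 9.91 in controls (change 0.24, and between 0.06 and 0.43 with 1 array left out, the lowest without CTNNB1 siRNA replicate 2).

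SNORD28, in SNHG1, had 8.87, 9.67 and 9.59 with CTNNB1 siRNA, against 9.04, 9.14 and 9.70 in controls (change 0.08). SNORD57, in the gene of the C/D core protein NOP56, had 9.25, 9.62 and 9.59 with CTNNB1 siRNA, against 9.55, 9.66 and 9.82 in controls (change -0.19, limma adjusted p = 0.442). Both groups overlapped in these 2 snoRNAs. The 2 measured copies of SNORD14, which acts in pre-ribosomal RNA cleavage, had positive changes: 0.22 for SNORD14C and 0.25 for SNORD14E (limma, adjusted p = 0.413 and 0.373).

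The brightest H/ACA rows likewise did not pass. SNORA22 had the highest change of the class, with 8.89, 9.07 and 9.21 with CTNNB1 siRNA, against 8.01, 8.82 and 8.98 in controls (change 0.45 ± 0.22, limma adjusted p = 0.278). The low control replicate 1 set much of that value: without it the change was 0.15. SNORA71C, SNORA71A and SNORA71D are copies carried by 1 host, SNHG17, and had changes of -0.06, -0.11 and 0.18. SNORA21, in RPL23, had 8.15, 8.63 and 8.36 with CTNNB1 siRNA, against 8.28, 8.86 and 8.74 in controls (change -0.24, limma adjusted p = 0.466), with overlapping groups.

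**Figure D4:**
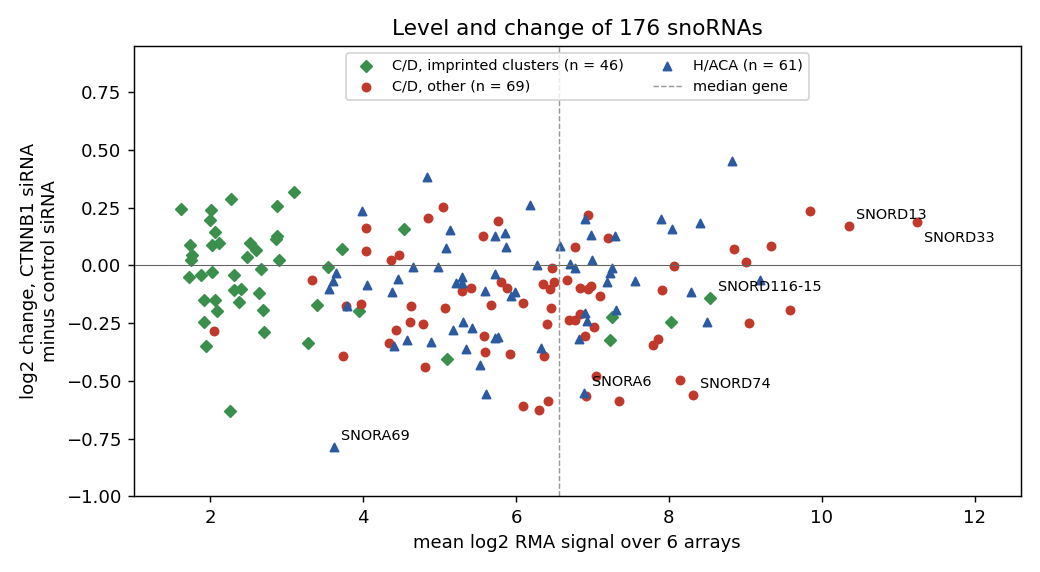
Mean log2 RMA signal over 6 arrays (x) against log2 change, CTNNB1 siRNA minus control siRNA (y), of all 176 snoRNAs, with the median gene's signal of 6.56 as a dashed line. Most members of the imprinted clusters lie at the dim end, and SNORA69 is the only called member among the dim rows.

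The imprinted clusters are expressed mostly in brain in healthy tissue; loss of the SNORD116 genes is linked to Prader-Willi syndrome. Their 46 members had a median signal of 2.44, and 42 were dimmer than the median gene. No member was called, beside 4.72% of all genes. An unadjusted p under 0.05 was found for 4 (8.70%), beside 20.3% of all genes, and the median change was -0.03. The 20 SNORD115 copies on chromosome 15 had mean signals of 1.73 to 3.10, all below the median gene. The 20 SNORD116 copies spread from 1.61 to 8.54. The 4 brightest, named after their values were seen, were SNORD116-15 at 8.54, SNORD116-14 at 8.03, SNORD116-20 at 7.26 and SNORD116-21 at 7.23. The copies are close in sequence, so probes of 1 copy may read others. SNORD116-24, named for the smallest p of the clusters, had 4.66, 5.01 and 5.01 with CTNNB1 siRNA, against 5.36, 5.16 and 5.38 in controls (change -0.41 ± 0.12, limma adjusted p = 0.0902).

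The host genes were read from the same fit. Of the members, 173 lie within another annotated gene, and 82 have a host with a row of its own, 62 hosts in all. Of these 62 hosts, 15 (24.2%) fell and none rose, beside 2.65% of falls among all genes. An unadjusted p under 0.05 was found for 30, all 31 hosts with separate groups were lower, and the median change was -0.20. Among all genes 20.3% had such a p and 15.2% had separate, lower groups. The hosts were bright, with a median signal of 8.99 beside 6.56 for all genes. Among genes brighter than the median, 4.62% fell, 28.7% had such a p, 24.7% had separate, lower groups, and the median change was -0.05. The hosts that fell included ODC1, the first enzyme of polyamine synthesis, the translation initiation factor EIF3A, the ribosomal protein gene RPL3, the elongation factor EEF2 and nucleolin (NCL). The 22 snoRNAs in those 15 hosts had no call, with 15 changes below 0 and 7 above, a range of -0.31 to 0.23 and a median of -0.06. The median change of those hosts was -0.54, which follows in part from their choice as called falls. The median standard error was 0.146 for the 22 snoRNAs and 0.108 for the 62 hosts, and the difference between host and snoRNA was not tested.

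SNORA80B in ODC1 averaged 6.70 with CTNNB1 siRNA and 6.70 in controls, a change of 0.00 ± 0.15, while ODC1 had a change of -0.80 ± 0.12 (limma, adjusted p = 0.00482). SNORA19 in EIF3A had a change of -0.06 ± 0.17, beside -0.73 ± 0.11 for EIF3A (limma, adjusted p = 0.00644). SNORA41 and SNORD51, both in EEF1B2, had changes of 0.23 and -0.18, beside -0.48 for the host. In these pairs the host fell and the snoRNA did not pass the test. SNORA19, SNORA41 and SNORD51 were dim, with mean signals of 4.46, 3.99 and 4.63, beside 6.70 for SNORA80B and 6.56 for the median gene. Background makes up more of a dim value, so a small change there does not show that the snoRNA parted from its host. The part of background in these changes was not tested. SNORD49A and SNORD4A showed the opposite order to the pairs above, each more negative than its host. SNHG29 had a change of -0.25 and RPL23A of -0.22, neither called. The other RPL23A snoRNAs, SNORD4B (-0.07) and SNORD42A (-0.10), were less negative than the host. ODC1 and EIF3A had the most negative host changes, and SNORD49A and SNORD4A were named for small p-values. The order in those pairs was thus partly set by the choice. Across the 82 pairs, which share the 6 arrays, Pearson's r between the changes was 0.0544, given as a description only; the snoRNA was the more negative of the pair in 21.

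**Figure D5:**
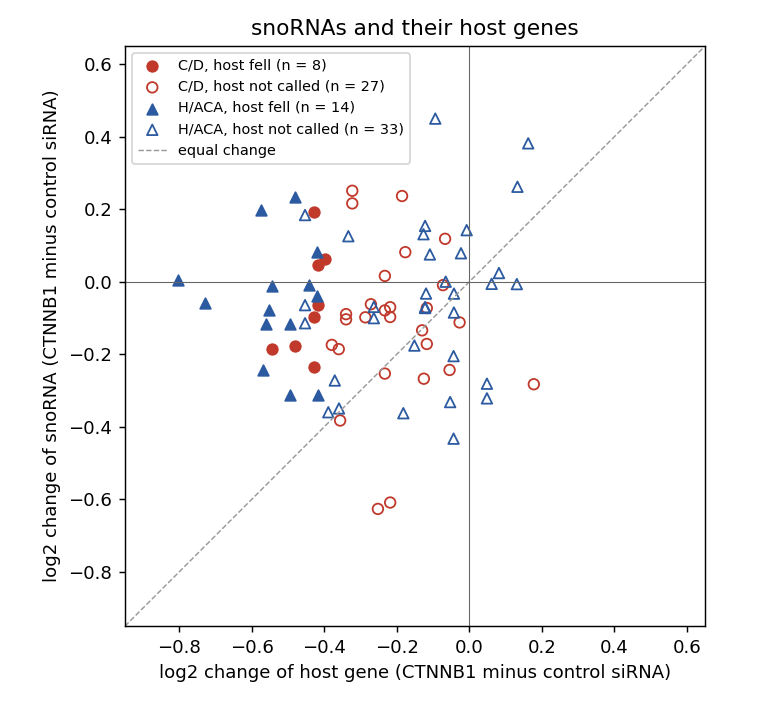
Log2 change of each snoRNA (y) against that of its measured host gene (x), CTNNB1 siRNA minus control siRNA, for 82 pairs with 62 hosts. Host changes reach -0.80, and the 22 snoRNAs in hosts that fell lie between -0.31 and 0.23.

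The count of hosts depended on single arrays. It was 4, 3 and 11 without CTNNB1 siRNA replicate 1, 2 and 3, and 2, 8 and 2 without control replicate 1, 2 and 3. After cyclic loess it was 9.

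Genes for the proteins of snoRNA particles were counted in the same fit. Of 20 measured core and assembly genes 7 fell and none rose, and 17 changes were below 0, with a median of -0.29. Among all genes 2.65% fell and 48.8% of changes were below 0; among genes brighter than the median, 4.62% fell and 58.6% were below 0. DKC1, the pseudouridine synthase, had 8.66, 8.56 and 8.82 with CTNNB1 siRNA, against 9.36, 9.26 and 9.45 in controls (change -0.68 ± 0.11, limma adjusted p = 0.00704). Its groups were separate, and of the other H/ACA core proteins NHP2 fell (change -0.48, limma adjusted p = 0.0484), while NOP10 had 0.09 and GAR1 -0.21, neither called. In the C/D core NOP58 fell (change -0.53, limma adjusted p = 0.0462), and the methyltransferase FBL had -0.22 (adjusted p = 0.391). NOP56 and SNU13 had no row of their own.

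The assembly factors that fell were NOLC1 (-0.57), a chaperone of snoRNPs in the nucleolus, the ATPase RUVBL1 (-0.55), and NUFIP1 (-0.50) and ZNHIT6 (-0.42), which act in box C/D assembly. Without CTNNB1 siRNA replicate 1 or 2 the count of 7 became 2, and without control replicate 1 or 3 it became 1. Calls over all genes, in either direction, went from 870 to 283, 421, 288 and 372 in these fits. Of 16 small Cajal body RNAs, relatives that guide modification of spliceosomal RNAs, SCARNA9 rose and 9 changes were below 0. SCARNA9 had 11.57, 11.49 and 11.82 with CTNNB1 siRNA, against 11.08, 11.27 and 11.12 in controls (change 0.47 ± 0.11, limma adjusted p = 0.0461).

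A further 74 rows of the table carry a snoRNA symbol together with other symbols, and 82 snoRNAs occur only there. None of these rows was called in a fit over all 33297 rows, which called 0.757% of them; 12 had an unadjusted p under 0.05, and 49 changes were below 0 and 25 above, with a median of -0.12. They were kept out of the counts above, since such a row cannot be given to 1 gene.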

How the data were processed

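YCC3 cells were profiled on Affymetrix Human Gene 1.0 ST arrays from 500 ng of total RNA with the Ambion WT Expression kit, per the labels' protocols. The authors deposited log2 signals made with RMA, which corrects background, equalises the arrays' distributions and summarises probes, in Affymetrix Expression Console 1.1, per the submitters' processing notes. A change shared by most genes would thus not be visible, and mature snoRNAs and their precursors cannot be told apart by such probes. The number of arrays limits the precision.

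Of 33297 rows, 19460 had 1 symbol. The brightest row over 6 arrays was kept for each of 18417 genes, which for 174 of the 176 snoRNAs was the only one. SNORA10 had 2 rows and SNORA15 had 3. All snoRNAs matched RefSeq. Genes were tested with limma 3.58.1 (lmFit, eBayes, R 4.3.3), two-sided; p-values were adjusted by Benjamini-Hochberg over the whole table of genes, and 0.05 was the threshold. Errors are standard errors. Only genes past the threshold are said to rise or fall. The fit was tested on simulated data.

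Named were the called members, the 5 with the smallest p and the 5 brightest of each class, those with an own promoter, their hosts, core proteins and called pathway genes. Members and lists were chosen with earlier results of these data known. A host is a RefSeq gene that contains the snoRNA on GRCh38.p14; strand was not used, since the table gives none. Promoters came from RefSeq. Another 20 settings were tried. The snoRNAs of 1 further host are not reported here by name.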

Additional observations from a re-analysis of the deposited data

How the results depend on the processing

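Replicate numbers paired the samples only in part: deviations of same-numbered arrays correlated at -0.0188, 0.329 and 0.223 for replicates 1, 2 and 3. Between replicates 2 and 3 of opposite groups the correlations were -0.293 and -0.272. CTNNB1 siRNA replicate 1 correlated best with control replicate 3 (0.0777). Replicates 2 and 3 thus went with their numbers and replicate 1 did not. The labels state no pairing, so the reported fit has no block. With replicate number as a block, 9 C/D snoRNAs fell instead of 1, and 3 H/ACA snoRNAs instead of 2, the third being SNORA33 (adjusted p = 0.0373). The count of C/D falls was 6 without the dimmest 25% of genes, 5 without the dimmest 50%, 5 with trend and robust moderation, 2 with array weights, 7 at a threshold of 0.10, and 0 without moderation or over all rows; it ran from 0 (without CTNNB1 siRNA replicate 1) to 5 (without CTNNB1 siRNA replicate 3). H/ACA falls, 2 in the fit reported, were 1 with cyclic loess, without the dimmest 50% and over all rows, and 0 without moderation, and ran from 1 to 3 with 1 array left out; at 0.10 there was 1 H/ACA rise. Imprinted clusters had 1 fall without the dimmest 25% and at 0.10, and 0 to 1 with 1 array left out. Host falls, 15 as reported, were 9 with cyclic loess, 25 without the dimmest 50% and with trend and robust moderation, 1 without moderation and over all rows, and 8 at a size of at least 0.5, and ran from 2 to 11 with 1 array left out. The 7 pathway falls became 4 with cyclic loess and at that size, 0 without moderation and over all rows, and 1 to 5 with 1 array left out. Calls over all 18417 genes, in either direction, moved as well. They were 870 in the fit reported, 1177 with the block, 1622 with trend and robust moderation and 1209 with array weights. With cyclic loess they were 867, without moderation 111, and over all rows 195. Without the dimmest 25% they were 1483 of 13813 genes, and without the dimmest 50% 1861 of 9209. With 1 array left out they ran from 283 to 877. The cause of these shifts was not tested.

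SNORA69 passed without any 1 array and failed without moderation (adjusted p = 0.0991); the filters on dim genes removed it. SNORD75 passed with the block (0.0128), array weights (0.0430), trend and robust moderation (0.0155), and without the dimmest 25% (0.0244) or 50% (0.00794). SNORD1A (0.0478), SNORD4A (0.0225) and SNORD49A (0.0262) passed with the block; SNORD4A and SNORD49A also passed with trend and robust moderation (0.0343 and 0.0363) and without the dimmest 25% (0.0358 and 0.0407). CTNNB1 missed the threshold without moderation (0.0660). SNORA33 also passed with trend and robust moderation (0.0417) and without the dimmest 25% (0.0357). The log2 change of SNORA71C was 0.0103 with cyclic loess (adjusted p = 0.974). With 1 array left out, the change of SNORA71C ran from -0.132 to 0.0333, SNORD13 from -0.0712 to 0.478 and SNORD28 from -0.0637 to 0.335, so their signs are not settled. Medians kept their sign throughout, at -0.14 to -0.05 for C/D and -0.12 to -0.03 for H/ACA snoRNAs with 1 array left out, and at -0.17 and -0.01 without the dimmest 50%. No class had a rise under the other settings apart from the one named.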
